A study of Mus musculus with 18 samples.

Results

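The 9 genes Elf3, Ehf, Spdef, Grhl2, Ovol1, Esrp1, Esrp2, Spint1 and Spint2 encode regulators of epithelial identity, of epithelium-specific splicing and of proteolysis at the epithelial cell surface. They were chosen by symbol, with older names allowed, and were represented by 17 of 41174 different array probes and by 9 of 28919 genes or unnamed transcripts. Their transcripts were read on 2-colour oligonucleotide arrays from whole mammary glands and mammary tumours that had been flash frozen, all from females of the inbred strain FVB/N. The 9 RNA samples were 5 single tumours labelled KI (ErbB2 knock-in), 2 pools of 5 tumours each labelled NIC, and 2 normal mammary glands. As general knowledge of these models, KI tumours carry an activated form of the receptor tyrosine kinase ErbB2 under its own promoter and NIC tumours express it from the mammary tumour virus promoter, on a transcript that also encodes the Cre recombinase as a separate protein. The labels name the groups and give no promoter, allele, age or treatment. Since each NIC pool is a mixture of tumours, the spread between single NIC tumours was not measured.

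Epithelial cells keep their state through a small set of transcription factors. Elf3, Ehf and Spdef belong to the epithelium-specific branch of the ETS family, Grhl2 to the grainyhead-like family, which activates junction genes such as Cdh1 and the claudins, and Ovol1 is a zinc finger repressor that restrains mesenchymal genes. The RNA-binding proteins Esrp1 and Esrp2 direct the epithelial splice forms of genes such as Fgfr2 and Cd44, and Spint1 and Spint2 are membrane-bound Kunitz inhibitors of serine proteases such as matriptase. In the mammary gland these genes mark ducts and alveoli, which in a whole gland lie embedded in a fat pad.

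Promoter sequences are shown because 8 of the 9 genes were called higher in NIC pools than in normal glands and because the motifs of factors that act on epithelial genes can be read in them. The RefSeq table used here (GRCm38.p6) held promoters of Elf3, Spdef, Spint1 and Spint2, each the 250 bases before and the 50 after the annotated start. Elf3 lies at chr1:135258423-135258722 on the minus strand, Spdef at chr17:27728902-27729201 on the minus strand, Spint1 at chr2:119237110-119237409 on the plus strand and Spint2 at chr7:29281928-29282227 on the minus strand. They are printed 5′ to 3′ along the gene, and capitals mark CAGGTG, a core bound by the repressors of the ZEB and SNAI families, or GGAAGT, a core bound by ETS factors, on either strand.
Elf3: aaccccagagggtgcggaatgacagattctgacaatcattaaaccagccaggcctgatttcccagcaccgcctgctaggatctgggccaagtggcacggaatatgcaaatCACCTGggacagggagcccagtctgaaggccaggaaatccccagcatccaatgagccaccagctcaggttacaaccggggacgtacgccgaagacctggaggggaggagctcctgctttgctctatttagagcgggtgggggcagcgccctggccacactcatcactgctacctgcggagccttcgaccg
Spdef: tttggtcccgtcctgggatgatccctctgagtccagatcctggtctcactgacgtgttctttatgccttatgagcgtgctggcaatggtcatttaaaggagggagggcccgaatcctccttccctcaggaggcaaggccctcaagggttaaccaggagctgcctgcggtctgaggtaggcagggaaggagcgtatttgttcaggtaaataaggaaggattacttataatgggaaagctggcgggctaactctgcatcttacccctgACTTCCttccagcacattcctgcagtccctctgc
Spint1: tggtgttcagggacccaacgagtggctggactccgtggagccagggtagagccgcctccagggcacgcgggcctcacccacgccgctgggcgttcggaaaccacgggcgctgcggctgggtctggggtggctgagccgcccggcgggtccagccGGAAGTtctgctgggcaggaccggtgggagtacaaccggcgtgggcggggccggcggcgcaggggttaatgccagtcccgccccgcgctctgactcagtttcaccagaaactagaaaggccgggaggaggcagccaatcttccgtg
Spint2: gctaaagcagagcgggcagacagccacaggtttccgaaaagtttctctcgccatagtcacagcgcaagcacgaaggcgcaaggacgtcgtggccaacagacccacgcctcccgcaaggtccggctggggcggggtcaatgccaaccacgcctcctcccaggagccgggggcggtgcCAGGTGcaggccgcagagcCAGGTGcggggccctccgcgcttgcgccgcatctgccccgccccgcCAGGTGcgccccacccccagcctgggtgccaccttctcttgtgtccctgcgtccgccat

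CAGGTG stood 3 times in the Spint2 window, at bases 177 to 182, 196 to 201 and 242 to 247, and once in that of Elf3, at bases 111 to 116, as its reverse complement. This motif occurred in 20.2% of all 32851 promoters of the table. GGAAGT stood once in the Spint1 window, at bases 155 to 160, and once in that of Spdef, at bases 267 to 272, as its reverse complement, and occurred in 23.8% of all promoters. The grainyhead motif AACCGGTT, held by 0.146% of all promoters, was in none of the 4 windows. These motifs share no bases in the 4 windows. The Spint1 and Spint2 promoters had 69.7% and 69.3% G or C, with 28 and 26 CpG dinucleotides, those of Elf3 and Spdef 59% and 53.3%, with 12 and 7, and the medians over all promoters were 52.7% and 7.

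Levels below are log2 ratios of the sample over a common reference RNA, each the mean of 2 arrays with the dyes exchanged. Per gene the probe brightest on the KI arrays was used, and levels of different genes cannot be compared. NIC pools and normal glands lie in the same deposited table and were compared with limma, adjusted over all 28919 genes and called at an adjusted p under 0.05. KI tumours have a table of their own, which may have been normalized separately, so KI values were set beside the others by level, difference of means and overlap, with no test. KI group, table and platform record cannot be told apart. On all 10 KI arrays the 17 probes were well above background in the tumour channel, and none was saturated.

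All 9 genes stood higher in both NIC pools than in both normal glands, where 30.0% of all genes did so, and 8 of the 9 were called higher (8.79% of all genes were called higher and 9.80% lower). The one not called was Ehf. The median difference over the 9 genes was 1.97 log2 units, against −0.057 over all genes. Of the 9 genes, 8 were also higher in every KI tumour than in both normal glands, where 23.7% of all genes lay higher with no overlap and 30.4% lower. The exception was Spdef. The median KI difference from normal glands was 2.35 for the 9 genes and −0.026 for all genes. The calls in NIC pools rest on 2 samples a group: without either NIC pool limma called 0 genes of all tested, and 8 of the 9 regulators had an unadjusted p under 0.05 either way, with 6400 of all genes below that mark without NIC pool 1 and 6977 without NIC pool 2. Without normal gland 1, and likewise without normal gland 2, 6 of the 9 were called. Elf3 and Spdef lost their calls both times, Spint1 without gland 1 and Esrp2 without gland 2, and Ehf was called both times.

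**Figure D1:**
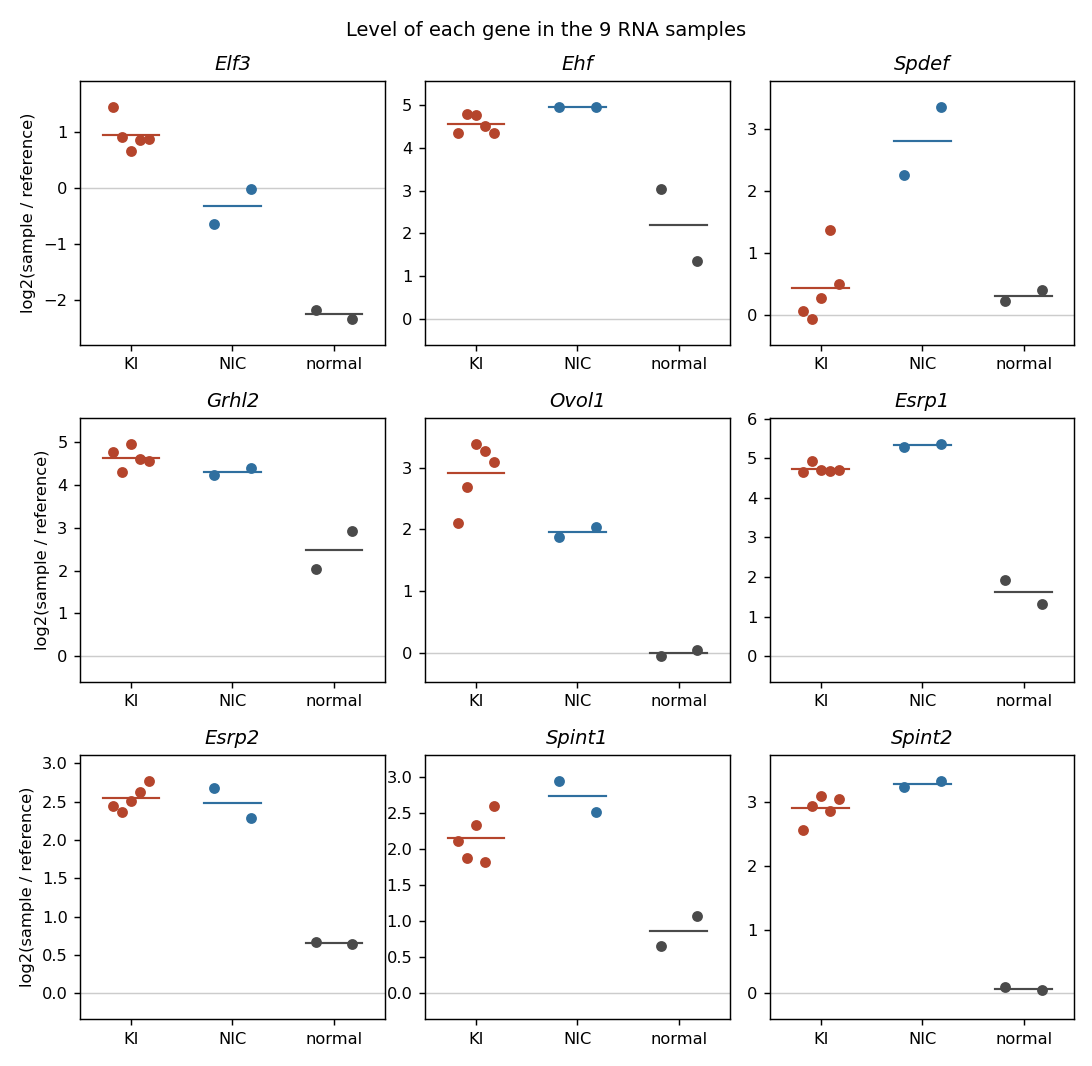
Level of each gene in the 9 RNA samples, as log2 of sample over reference RNA (vertical axis, a separate scale per gene), with KI tumours, NIC pools and normal glands from left to right; points are RNA samples and lines group means. Every KI and NIC point lies above both normal glands for each gene but Spdef, whose KI tumours run from −0.062 to 1.37 beside normal glands at 0.23 and 0.41.

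Among the ETS factors, Elf3, an epithelial factor induced in inflammation and in differentiating epithelia, had levels of 1.46, 0.91, 0.66, 0.86 and 0.87 in KI tumours 1 to 5, −0.64 and −0.02 in the NIC pools, and −2.18 and −2.35 in the normal glands. The 3 groups did not overlap, with KI tumours highest and normal glands lowest. The NIC pools exceeded the normal glands by 1.93 ± 0.26 (SE; 3.82-fold; limma adjusted p = 0.026). That call was lost with all columns scaled to 1 spread (1.15, adjusted p = 0.0589) and from the Cy3 arrays alone (2.02, adjusted p = 0.0661). The KI mean was 3.21 above the normal mean (9.26-fold) and 1.28 above the NIC mean (2.42-fold).

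Ehf, a close relative of Elf3 with a role in glandular and airway epithelium, had levels of 4.34, 4.79, 4.76, 4.51 and 4.35 in KI tumours, 4.94 and 4.96 in NIC pools, and 3.04 and 1.36 in normal glands. The normal glands lay below all tumours but were far apart from each other (SD 0.21 among KI tumours, 0.015 between NIC pools and 1.19 between normal glands). With that spread the NIC difference of 2.76 ± 0.63 did not pass the test (adjusted p = 0.0632). A second Ehf probe had 2.27, 3.60, 3.39, 3.91 and 3.55 in KI tumours, 3.43 and 3.51 in NIC pools, and 0.19 and 0.27 in normal glands. By that probe the glands lay close together and Ehf was 9.45-fold higher in NIC pools (3.24 ± 0.10; adjusted p = 0.00936 over all probes). The third Ehf probe was also called (1.04 ± 0.10; adjusted p = 0.017), with a KI mean 0.45 above the normal mean and overlapping groups.

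Spdef, an ETS factor of secretory luminal cells, followed another pattern than the other 8 genes. Its level was 0.073, −0.062, 0.29, 1.37 and 0.50 in KI tumours, 2.26 and 3.36 in NIC pools, and 0.23 and 0.41 in normal glands. KI tumours and normal glands overlapped, and both NIC pools lay above all other samples. The NIC pools exceeded the normal glands by 2.50 ± 0.42 (5.64-fold; adjusted p = 0.039), while the KI mean was 0.12 above the normal mean and 2.38 below the NIC mean. The 1 Spdef probe was dim, brighter on the KI arrays than only 16.3% of probes. Its 2 dye arrays differed by −0.89 (Cy5 minus Cy3) in NIC pool 1 and by 1.01 in NIC pool 2, while in the other 7 RNA samples they differed by 0.083 to 0.37. From the Cy5 arrays alone the call was lost (difference 2.47, adjusted p = 0.10).

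Grhl2, the grainyhead-like factor, had levels of 4.76, 4.29, 4.96, 4.59 and 4.55 in KI tumours, 4.22 and 4.38 in NIC pools, and 2.03 and 2.92 in normal glands. Tumours of both kinds lay at a like level above the glands. The difference was 1.83 ± 0.35 in NIC pools (3.55-fold; adjusted p = 0.0464) and 2.16 in KI tumours (4.46-fold). The call was lost from the Cy3 arrays alone (1.68, adjusted p = 0.149). A second, very dim Grhl2 probe differed in the same direction by less, 0.94 ± 0.10 in NIC pools (adjusted p = 0.0204) and 0.33 in KI tumours. The third Grhl2 probe did not follow them and differed by −0.15 ± 0.21 in NIC pools (adjusted p = 0.632) and by −0.52 in KI tumours, which all lay below both glands by that probe.

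Ovol1, the zinc finger repressor, had levels of 2.11, 2.70, 3.39, 3.27 and 3.09 in KI tumours, 1.88 and 2.04 in NIC pools, and −0.054 and 0.041 in normal glands. The 3 groups did not overlap, though KI tumour 1 lay close to the NIC pools. The NIC pools exceeded the normal glands by 1.97 ± 0.12 (3.91-fold; adjusted p = 0.00994), and the KI mean did so by 2.92 (7.55-fold). The other Ovol1 probe gave smaller differences in the same direction, 0.61 ± 0.098 in NIC pools (adjusted p = 0.0368) and 0.98 in KI tumours. By that probe KI tumours and NIC pools overlapped, with KI tumour 1 at 0.54 below the NIC pools at 0.80 and 0.77.

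Both splicing regulators were higher in tumours. Esrp1 had levels of 4.65, 4.92, 4.70, 4.67 and 4.71 in KI tumours, 5.29 and 5.37 in NIC pools, and 1.94 and 1.31 in normal glands. No group overlapped another, and the KI tumours lay close together. The NIC difference of 3.71 ± 0.25 (13.0-fold; adjusted p = 0.011) was the largest of the 9 genes, and the KI mean was 3.11 above the normal mean (8.62-fold). A second, dimmer Esrp1 probe stayed near 0 in every sample, between −0.054 and 0.051 in KI tumours, at 0.0051 and −0.031 in NIC pools, and at 0.15 and 0.17 in normal glands. It was not called (−0.18 ± 0.092, adjusted p = 0.249).

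Esrp2, the paralogue of Esrp1, had levels of 2.44, 2.36, 2.51, 2.63 and 2.77 in KI tumours, 2.68 and 2.29 in NIC pools, and 0.67 and 0.65 in normal glands. KI and NIC levels overlapped, and both lay well above the glands. The NIC difference was 1.82 ± 0.17 (3.54-fold; adjusted p = 0.0168) and the KI difference 1.88 (3.69-fold). By the other Esrp2 probe the differences were of a like size, 1.71 ± 0.40 in NIC pools and 1.91 in KI tumours, but the NIC difference did not pass the test (adjusted p = 0.0689), with the normal glands at 1.59 and 2.63.

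Spint1, which inhibits matriptase and the activator of hepatocyte growth factor, had levels of 2.12, 1.88, 2.33, 1.82 and 2.60 in KI tumours, 2.95 and 2.52 in NIC pools, and 0.66 and 1.08 in normal glands. All tumours lay above both glands, and KI tumour 5 reached the range of the NIC pools. The difference was 1.87 ± 0.24 in NIC pools (3.65-fold; adjusted p = 0.025) and 1.28 in KI tumours (2.43-fold). The NIC call was lost from the arrays of either dye alone (2.07 from Cy5, adjusted p = 0.0697, and 1.67 from Cy3, adjusted p = 0.0631). The other Spint1 probe was called as well (2.00 ± 0.30, adjusted p = 0.0328), with a KI difference of 1.21.

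Spint2, the related inhibitor with the same class of targets, had levels of 2.56, 2.95, 3.10, 2.87 and 3.05 in KI tumours, 3.24 and 3.34 in NIC pools, and 0.094 and 0.048 in normal glands. The glands agreed closely with each other, and the tumours lay far above them. The NIC difference was 3.22 ± 0.10 (9.30-fold), with the lowest adjusted p of the 9 genes (0.00775), and the KI difference was 2.83 (7.13-fold). Spint2 has 1 probe, among the brightest on the KI arrays.

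**Figure D2:**
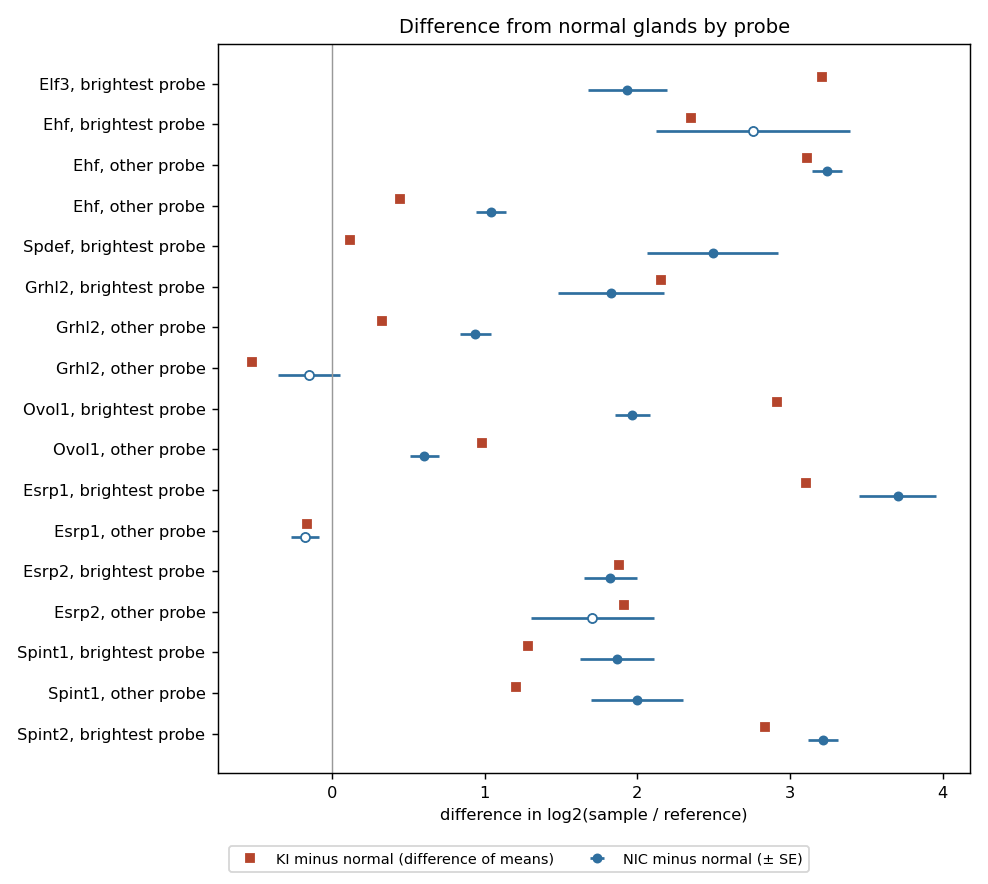
Difference from normal glands in log2(sample / reference) (horizontal axis) for each of the 17 probes, the brightest probe of each gene first. Squares are KI minus normal (difference of means, no test), circles NIC minus normal with SE from limma, filled where the adjusted p over all probes is under 0.05; 13 circles are filled, and 1 probe each of Grhl2 and Esrp1 lies below 0 on both measures.

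Taken by probe, 13 of the 17 were called higher in NIC pools and 0 lower, and 4 were not called, in a fit that called 9.82% of all probes higher and 8.62% lower. Relative to normal glands, 13 probes were higher in all KI tumours, 2 overlapped and 2 were lower, where 27.2% of all probes lay higher and 27.5% lower with no overlap. Of the 6 genes with several probes, Spint1 and Ovol1 had all their probes called. The deposited values give 1 number per probe, with no splice form attached.

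KI tumours and NIC pools differed in both directions. By the probe used, Elf3 and Ovol1 were higher in all KI tumours than in both NIC pools. Ehf, Spdef, Esrp1 and Spint2 were lower, and Grhl2, Esrp2 and Spint1 overlapped. Among all genes 16.4% lay higher and 14.7% lower with no overlap, and the median difference of the 9 genes was −0.38, against 0.0034 over all genes. Among the 4 genes lower with no overlap, the KI mean was lowest relative to NIC pools for Spdef (0.192-fold), followed by Esrp1 (0.660-fold, a difference of −0.60), Ehf (−0.40) and Spint2 (−0.38). Of the 3 that overlapped, Spint1 differed by −0.58, Grhl2 by 0.33 and Esrp2 by 0.059. Other probes did not always follow. KI tumours and NIC pools overlapped by the other probes of Ovol1 (0.38), Ehf (−0.13 and −0.59) and Esrp1 (0.013). By the other Spint1 probe (−0.79) and the second Grhl2 probe (−0.61) all KI tumours were lower. The third Grhl2 probe (−0.37) and the other Esrp2 probe (0.20) overlapped. For Ehf, Esrp1 and Spint2 the separation depended on the scaling of the arrays. Ehf stood at 0.017 with all columns scaled to 1 spread and Spint2 at 0.044 after quantile normalization, both with overlap, and Esrp1 overlapped under either, at −0.17 and −0.26. The Ovol1 difference of 0.95 was −0.0067 when KI values were taken from the scanner intensities instead of the deposited table, and the Grhl2 difference was then −0.70, with all KI tumours below the NIC pools. Elf3 stayed higher with no overlap in 15 of 15 alternatives (0.97 to 1.59) and Spdef lower in 14 of 14 (−2.93 to −1.83).

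**Figure D3:**
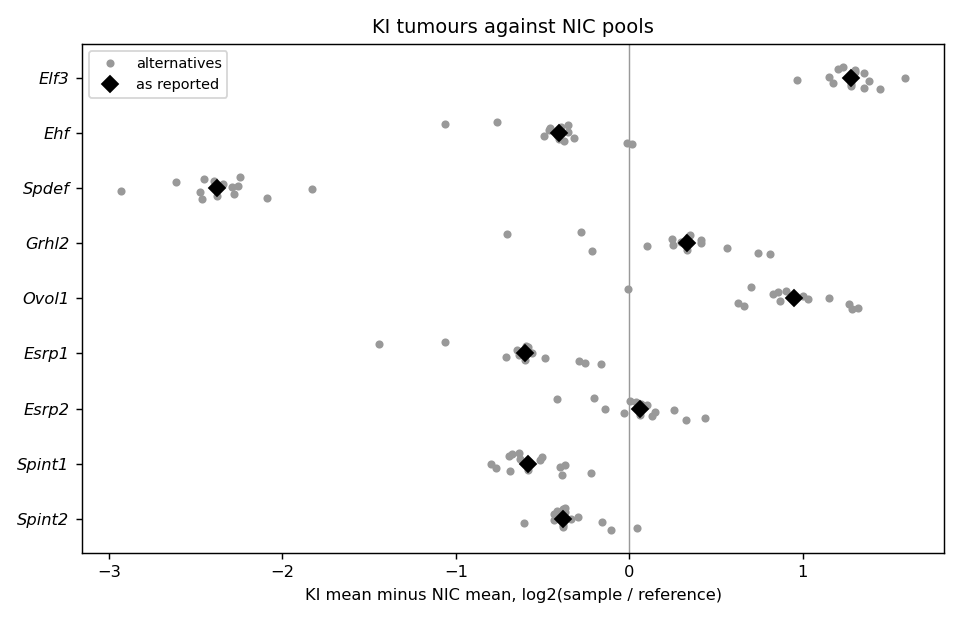
Difference between the KI mean and the NIC mean in log2(sample / reference) for each of the 9 genes (diamonds) and the same difference under each processing alternative (grey points). Elf3 lies above 0 and Spdef below 0 under every alternative plotted, while the points of Ehf, Grhl2, Ovol1, Esrp2 and Spint2 reach both sides of 0.

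Among the 5 KI tumours the 9 genes varied by an SD of 0.11 (Esrp1) to 0.57 (Spdef), with a median of 0.25, against 0.15 over all genes, and 8 of the 9 lay above that value. The other gene was Esrp1. No tumour was high or low throughout. KI tumour 1 was lowest for 4 genes and highest for Elf3, KI tumour 2 was lowest for 3 and highest for 2, and KI tumour 3 was highest for 3. KI tumour 4 had the highest Spdef, at 1.37, with the next tumour at 0.50. As medians over the 9 genes the samples stood at 2.44, 2.70, 3.10, 2.87 and 3.05 in KI tumours, 2.95 and 3.34 in NIC pools, and 0.66 and 0.65 in normal glands. The 2 dye arrays of an RNA sample can differ by more than this spread: for Ehf they differed by 0.37 to 1.60 over the 9 RNA samples and for Esrp1 by −0.041 to 1.12.

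**Figure D4:**
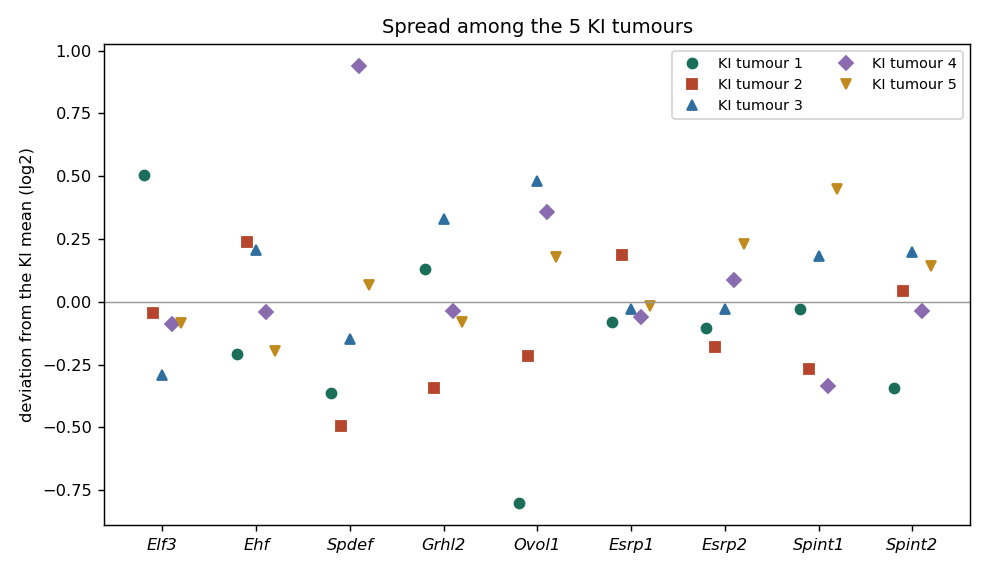
Deviation of each KI tumour from the mean of the 5 KI tumours, in log2 units (vertical axis), for each of the 9 genes; each symbol is 1 tumour. The widest spreads are those of Spdef (SD 0.57), where KI tumour 4 is high, and Ovol1 (SD 0.52), where KI tumour 1 is low, and the narrowest is that of Esrp1 (SD 0.11).

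Of 15 measured ETS, grainyhead-like and Ovol relatives, 1 was called higher in NIC pools, 2 lower and 12 not, with a median difference of 0.026. These counts are near the shares over all genes, 8.79% called higher and 9.80% lower, which also stand beside the list counts below. Elf2, a broadly expressed ETS factor, was higher by 1.35 ± 0.25 (adjusted p = 0.0447). Fli1 and Erg, ETS factors of endothelium and blood cells, were lower by the probe used (−3.22 ± 0.15, adjusted p = 0.00828, and −1.94 ± 0.18, adjusted p = 0.0154), while their other probes differed by −0.15 and −0.057. Of the factors nearest to the members, Grhl1 differed by 1.72 ± 0.50 (adjusted p = 0.0959; its other probe by 1.81) and Ovol2 by 0.62 ± 0.19 (adjusted p = 0.108; its other probe by 2.02), both not called by the probe used and both picked after their values were seen. The luminal ETS factor Elf5, picked in the same way, was at 5.30 to 5.75 in KI tumours, 5.74 and 5.96 in NIC pools, and 4.78 and 5.60 in normal glands, and was not called (adjusted p = 0.233).

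Of 16 other splicing regulators measured, 3 were called higher in NIC pools, 1 lower and 12 not (median 0.31). Rbm47, an RNA-binding protein of epithelia, had levels of 1.14, 3.05, 1.62, 2.59 and 2.10 in KI tumours, 2.74 and 2.75 in NIC pools, and −1.26 and −1.59 in normal glands. It lay far above the glands in all tumours, by 4.17 ± 0.15 in NIC pools (adjusted p = 0.00775). Mbnl2, of the muscleblind family, was higher by 3.10 ± 0.19 (adjusted p = 0.0101) and Ptbp3, of the polypyrimidine tract-binding family, by 0.83 ± 0.10 (adjusted p = 0.0231). Celf2, of the CELF family, was lower (−1.74 ± 0.14, adjusted p = 0.013), with 5 other probes between −3.09 and 0.44.

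Genes whose splicing the Esrp proteins are known to direct were measured here as whole transcripts, and the arrays do not report their splice forms. Of 13 measured, 3 were called higher, 0 lower and 10 not (median 0.35). The 3 were Enah, an actin regulator (3.19 ± 0.35, adjusted p = 0.0202), Ctnnd1, which encodes the cadherin-binding protein p120 catenin (2.62 ± 0.26, adjusted p = 0.018), and Scrib, a polarity gene (1.33 ± 0.18, adjusted p = 0.028). Enah and Ctnnd1 each had another probe that moved little, by 0.22 and 0.035. Fgfr2 and Cd44, the best-known targets, were picked after their values were seen and not called. Fgfr2 was at −3.48 to −1.78 in KI tumours, −1.67 and −1.89 in NIC pools, and 1.50 and −0.12 in normal glands (−2.47 ± 0.61, adjusted p = 0.0727), with 2 other probes at differences of −1.07 and −0.0020. Cd44 differed by 1.29 ± 0.26 (adjusted p = 0.0517), and its 2 other probes by 0.50 and 2.93.

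Proteases and ligands around the Spint inhibitors moved both ways. Of 16 measured, 3 were called higher in NIC pools, 3 lower and 10 not (median 0.012). The serine proteases Hpn (2.51 ± 0.41, adjusted p = 0.0368), Prss8 (2.19 ± 0.21, adjusted p = 0.0165) and Tmprss4 (1.76 ± 0.35, adjusted p = 0.0496) were higher, and each was higher in all KI tumours than in both glands as well. The other Hpn probe differed by 1.17. The ligand genes Hgf (−1.05 ± 0.097, adjusted p = 0.0156) and Mst1 (−0.83 ± 0.10, adjusted p = 0.0236) and the protease gene Plau (−0.79 ± 0.14, adjusted p = 0.0413) were lower. Other probes differed less, 3 of Hgf by −0.81 to −0.29 and 1 of Plau by −0.27. St14, which encodes matriptase and was picked after its values were seen, differed by 0.02 ± 0.13 by the probe used (adjusted p = 0.922) and by 2.57 by its other probe.

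The epithelial adhesion genes, which include known Grhl2 targets, moved with the 9 regulators: of 24 measured, 16 were called higher in NIC pools, 0 lower and 8 not, with a median difference of 1.84. Epcam (3.87 ± 0.54, adjusted p = 0.0279), the tight junction genes Ocln (3.62 ± 0.18, adjusted p = 0.0085) and Cldn1 (3.57 ± 0.27, adjusted p = 0.0123) had the largest called differences, though the other Ocln probe differed by only 0.063. Of the 24, 20 lay higher in all KI tumours than in both glands and 0 lower. Repressors and markers of the mesenchymal state moved the other way in NIC pools, with 0 of 12 called higher, 7 lower and 5 not (median −1.55). Snai2 (−3.95 ± 0.17, adjusted p = 0.00794), Twist1 (−3.82 ± 0.28, adjusted p = 0.0122) and Twist2 (−2.95 ± 0.34, adjusted p = 0.0217) had the largest falls. Of the same 12, 1 lay higher in all KI tumours than in both glands, 7 lay lower and the others overlapped. Among all genes 23.7% lay higher and 30.4% lower with no overlap.

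Markers of other cell types moved in the same comparison. Of 15 adipocyte markers 12 were called lower in NIC pools and 0 higher, and their median level was −0.048 to 0.43 in KI tumours, 0.36 and 0.040 in NIC pools, and 3.88 and 3.60 in normal glands. The fat cell genes Cd36, Plin4 and Slc2a4 differed by −6.02, −5.61 and −5.16 in NIC pools (adjusted p = 0.00775, 0.0101 and 0.00775). Fibroblast markers were called lower for 6 of 12 (Dcn −4.70, Pdgfra −3.82 and Dpt −3.81), endothelium markers for 6 of 10 (Tek −3.16, Vwf −2.45 and Flt1 −1.92), leukocyte markers for 4 of 12 (Ms4a1 −3.88, Cd79b −3.84 and Ptprc −3.18) and muscle markers for 3 of 8 (Myl1 −6.17, Acta1 −3.03 and Des −1.44), with 0 called higher in any of these lists. Other probes differed less for Dcn (−0.23) and Pdgfra (−0.10), and ran from −3.46 to near 0 for Vwf, from −2.02 to 0.36 for Flt1 and from −1.16 to −0.34 for Ptprc. The part of these cell types in the result was not tested. In whole tissue, more epithelial cells and more RNA of a gene per epithelial cell cannot be told apart.

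Of 16 luminal markers 7 were called higher in NIC pools, 2 lower and 7 not (median 0.59). Prom1 (2.98 ± 0.27, adjusted p = 0.0152), Epcam and the keratin gene Krt8 (2.31 ± 0.25, adjusted p = 0.0193) were higher, and the hormone receptor gene Esr1 (−0.65 ± 0.12, adjusted p = 0.0459) and its partner factor Foxa1 (−3.04 ± 0.30, adjusted p = 0.0179) were lower. The other Esr1 probe differed by only −0.155. Over 9 processing alternatives, 2 to 11 luminal markers were called higher and 0 to 2 lower. Of 11 basal markers 0 were called higher and 6 lower (median −1.23), among them the contractile genes Myh11 (−2.40 ± 0.24, adjusted p = 0.0183) and Acta2 (−2.03 ± 0.21, adjusted p = 0.019; 4 other probes between −3.08 and 2.44) and the basement membrane adhesion gene Col17a1 (−2.21 ± 0.34, adjusted p = 0.0336; other probe −1.31). The median level of the luminal markers was 1.65 to 2.17 in KI tumours, 1.76 and 1.75 in NIC pools, and 0.92 and 0.64 in normal glands. That of the basal markers was 0.11 to 1.61 in KI tumours, 0.35 and 0.015 in NIC pools, and 0.81 and 1.46 in normal glands, so that KI tumours and glands overlapped. Of the 11 basal markers 2 were higher in all KI tumours than in both glands and 4 lower. These counts are near the shares over all genes, 23.7% higher and 30.4% lower with no overlap. The 2 higher ones were the keratin genes Krt14 and Krt17, named after their values were seen, with KI means 1.62 and 1.56 above the normal means.

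**Figure D5:**
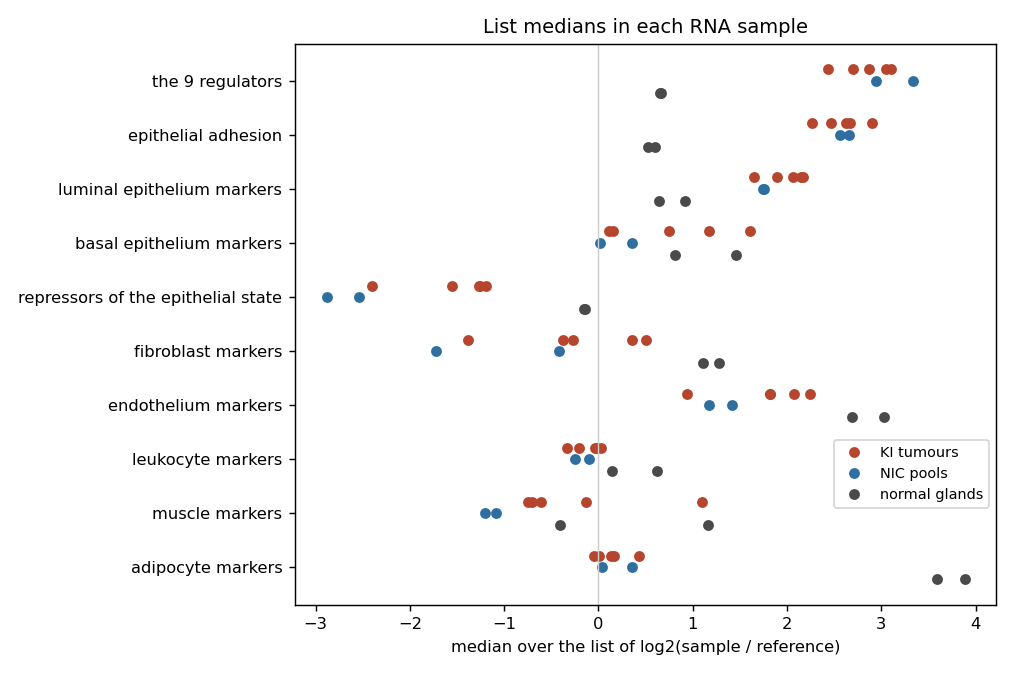
Median over each gene list of log2(sample / reference) (horizontal axis) in every RNA sample, with KI tumours above NIC pools above normal glands within each list. The 9 regulators, the epithelial adhesion genes and the luminal markers are lower in both normal glands than in every tumour sample. The adipocyte markers lie at or below 0.43 in every tumour sample, against 3.88 and 3.60 in normal glands.

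The genes whose levels over the 9 RNA samples lay nearest to the mean of the 9 regulators, each gene centred on its own mean, were Ccdc120, Cldn7, BC050137 (known here by its name in the file), Tceal9 and Ier2, with root mean square differences of 0.129, 0.132, 0.141, 0.150 and 0.157 log2 units among 27196 genes compared. Cldn7, a claudin of epithelial tight junctions, differed from normal glands by 2.38 in KI tumours and by 2.65 in NIC pools, and Ccdc120 by 2.01 and 2.18. The 9 regulators are part of that mean and other genes are not, which favours the regulators when the 2 are ranked together. Of the 9 regulators themselves, Esrp2 lay nearest to their mean (0.245), with 33 genes nearer than it. Spdef lay farthest (1.14), with 20166 genes nearer.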

How the data were processed

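RNA was isolated on columns, linearly amplified once and dyed with Cy3 or Cy5, per the labels' protocols. Each of 9 RNA samples was hybridised against a commercial mouse reference RNA on 2 dye-swapped arrays (18 arrays, 43790 spots). Values deposited by the authors are log2 ratios (sample over reference), with NIC and normal arrays together and KI arrays apart. RMA is named, without version or role, in the submitters' processing notes, and of other steps nothing is given in the sources used here. KI columns correlated with ratios of the same arrays' deposited scanner intensities (per the file headers, from Agilent Feature Extraction A.7.5.1) at r = 0.982 to 0.988. The deposited scanner files also give a log10 ratio, per the file headers, used as an alternative after conversion to log2. Direction and probe positions of the NIC and normal table were taken by analogy with the KI arrays. For 7 KI arrays the dyes in the labelling protocols oppose those in the label fields, and the label fields were used.

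All 2256 control spots were left out. Probes were named through a RefSeq gene table (GRCm38.p6) by accession (20716), current symbol (5039) or older symbol (5279), and 10140 kept the file's name. Esrp1 and Esrp2 carry the older names 2210008M09Rik and 9530027K23Rik in the files. Each of 28919 genes was represented by its probe brightest on the KI arrays. Both arrays of an RNA sample were averaged, and RNA samples were the replicates. NIC pools were compared with normal glands by limma 3.58.1 (R 4.3.3; eBayes after lmFit, two-sided, Benjamini-Hochberg adjustment, called under 0.05). P-values set each difference against the spread between these 2 pools and 2 glands, and the spread between single NIC tumours does not enter them. Having 2 RNA samples a group limits the precision.

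The 9 genes and the 13 other lists were chosen with earlier results of these data known. Named from each list were up to 3 genes called higher and up to 3 called lower with the largest differences, and the 5 genes nearest to the members' mean among genes well above background on all KI arrays; others are marked as picked later. Alternatives were other scalings, scanner values (normexp with offset 50 and loess, outlier spots of 0.288% left out), the mean of all probes, brighter genes, single dyes, other fits and leaving out each sample. The limma steps were tested on simulated data. Slide as a block was not fitted, with 1 array on each KI slide.

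Column medians lay between −0.0049 and 0.017. Interquartile ranges were 0.417 to 0.556 for KI arrays and 0.488 to 0.924 for the others. Both dye arrays of an RNA sample correlated over genes at r = 0.817 to 0.941. KI and NIC samples correlated across genes at r = 0.621 to 0.791. Images of 2 KI arrays were extracted on another day than those of the other KI arrays.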

Additional observations from a re-analysis of the deposited data

Results flagged for a closer look

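Of 30 groups of KI tumours and probes checked, 2 held a tumour far from the other 4, at a rule that flags about 1 in 20 groups by chance. By the brightest Esrp1 probe KI tumour 2 stood at 4.92, with the nearest other tumour at 4.71 and a gap of 0.769 of the whole range. By the Grhl2 probe that was not called, KI tumour 1 stood at −0.035, with the nearest other tumour at 0.29 and a gap of 0.741 of the range.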

How the results depend on the processing

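In NIC pools against normal glands, 5377 genes and 8 of the 9 regulators were called. From the Cy3 arrays alone 2048 genes and 5 regulators were called, 3430 genes with only those above the median brightness, 10634 with the RNA sample as a random block and 10395 with all 9 RNA samples in 1 fit. The block fit used arrays as units, and its consensus correlation of the arrays of an RNA sample was −0.0018. It thus counted dye arrays almost as separate samples, so its larger count adds no support. The fit of all 9 RNA samples also drew its variance from the KI table. Leaving out 1 RNA sample gave 0 to 4236 genes and 0 to 6 regulators, and by probe 0 to 5051 probes (7594 with all samples) and 0 to 8 probes of the 9 genes (13 with all samples); the 0 came without NIC pool 1 and without NIC pool 2. Ehf was called by limma with the mean of its probes (2.35, adjusted p = 0.0152) and with columns scaled to 1 spread (3.71, adjusted p = 0.0145). It was also called with brighter genes only (adjusted p = 0.0239) and from Cy5 arrays alone (adjusted p = 0.0329). It was not called from Cy3 arrays alone (adjusted p = 0.142), after quantile normalization (adjusted p = 0.0768) or with columns centred on the median (adjusted p = 0.0635). List counts in NIC pools moved as well. Over 9 alternatives, 0 to 5 factor relatives, 2 to 5 genes around the Spint inhibitors and 9 to 19 adhesion genes were called higher. Repressors and markers of the mesenchymal state called lower ran from 6 to 10, and adipocyte markers from 5 to 12. The counts of 8 genes higher in KI tumours than in normal glands were the same under every alternative that kept all 9 genes. Between KI tumours and NIC pools, 2 regulators were higher and 4 lower: 4 were higher and 1 lower after quantile normalization, 1 was lower with columns scaled to 1 spread, and 1 was higher with the mean of all probes, with brighter genes only, from Cy3 arrays alone and from scanner intensities. Leaving out 1 sample gave 2 to 3 higher and 4 to 5 lower. Among the genes that did not overlap between KI tumours and NIC pools, the difference changed sign for Ehf at 0.017 (columns scaled to 1 spread), Spint2 at 0.044 (quantile normalization) and Ovol1 at −0.0067 (scanner intensities). Among those that overlapped, Grhl2 (0.33) ran from −0.70 to 0.81 and Esrp2 (0.059) from −0.42 to 0.44, both lowest from scanner intensities, where all KI tumours lay below the NIC pools for Grhl2. The cause was not tested. The median SD of the 9 genes among KI tumours was 0.25 and ran from 0.207 to 0.357. No paired analysis was possible because replicate numbers only name the samples.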

Other observations

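Some genes of the lists stood apart in single KI tumours and were picked after their values were seen. Met, the receptor of hepatocyte growth factor, stood at 2.80 in KI tumour 1 and at 0.51, 0.42, 0.19 and 0.10 in KI tumours 2 to 5, beside 0.24 and 0.22 in NIC pools and 0.46 and 0.23 in normal glands. Mst1r, the related receptor of the Mst1 ligand, stood at 2.19 in KI tumour 3 and between −0.02 and 0.21 in the other KI tumours, beside 0.07 and −0.07 in NIC pools and 1.43 and 2.93 in normal glands. Trp63, a basal transcription factor, ran from −0.17 in KI tumour 1 to 3.95 in KI tumour 4, which also had the highest Spdef.

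The keratin gene Krt14 stood at 2.41 to 2.99 in KI tumours, −0.12 and −0.20 in NIC pools, and 0.67 and 1.46 in normal glands, with no overlap between the 3 groups. Twist1, called lower in NIC pools, stood at −2.32 to 0.50 in KI tumours, −2.78 and −3.45 in NIC pools, and 0.58 and 0.82 in normal glands.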
